A study of Mus musculus with 10 samples.

Results

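The LIM-homeobox genes *Lhx1*, *Lhx2*, *Lhx3*, *Lhx4*, *Lhx5*, *Lhx6*, *Lhx8*, *Lhx9*, *Lmx1a* and *Lmx1b* were followed across 6 ChIP-seq peak lists from mouse fetal liver (FL). These 10 genes, of 22225 protein-coding genes in the annotation, were chosen by measured values: most of them had a called H3K27me3 peak near a transcription start site (TSS) in WT cells of the earlier fraction. Their peak counts in the lists are therefore a description, and no test was run on them. H3K27me3, the histone mark made by Polycomb repressive complex 2 (PRC2), was profiled in FL cells of e14.5 embryos, either WT or with a constitutive deletion of *Mtf2*, called Pcl2 in the sample labels, a Polycomb-like subunit of PRC2. The Mtf2-null (Pcl2 -/-) line was made by aggregating targeted C57Bl/6 ES cells of EUCOMM with CD1 blastocysts. After germline transmission it was bred on C57Bl6/J, and the deletion is not limited to blood cells. Cells were sorted into CD71+Ter119-/lo cells, called pro-erythroblasts below, and CD71+Ter119+ cells, Ter119high in the labels and called erythroblasts, with 500000 cells per sample. ChIP-seq of Mtf2 itself covered both fractions of WT embryos. Each condition had 1 ChIP library, 6 in all, and 4 IgG libraries served as controls, so there is no replicate spread, and every difference between fractions or genotypes is between 2 libraries.

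The H3K27me3 libraries held 18945784 (WT) and 37026535 (Mtf2-null) unique tags in pro-erythroblasts and 30054186 and 67169672 in erythroblasts. Mtf2 libraries held 29009650 unique tags in pro-erythroblasts and 15669899 in erythroblasts. The lists had 4992, 1407, 4490 and 5791 H3K27me3 peaks in the same order and 28918 and 5309 Mtf2 peaks. Lists differed in kind as well as in length: 47.6% of WT erythroblast H3K27me3 peaks lay in CpG island-like sequence, against 4.33% in WT pro-erythroblasts and none of the 5791 in Mtf2-null erythroblasts. CpG island-like means 50% GC or more, with CpG at 0.6 or more of the number expected from base composition (the CpG ratio), in the 1 kb around the summit. The opening line of the series text names H3K4me3, while its later lines and the labels name H3K27me3. Peak lists cannot show whether *Mtf2* was deleted, and the fractions rest on the sort. Of 9 erythroid marker genes found in the annotation, 1 had an H3K27me3 peak within 5 kb of a TSS in each WT fraction. In erythroblasts it was *Ank1*, which encodes a red cell membrane protein. WT erythroblasts had a peak at 1 of 4 myeloid markers (*Cebpa*), 2 of 5 lymphoid markers (*Pax5* and *Ebf1*) and 1 of 5 hepatocyte markers (*Hnf4a*), with 11.6% for all genes. WT pro-erythroblasts had none at the myeloid, lymphoid and hepatocyte markers, with 3.3% for all genes. Nothing is read from these small counts.

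LIM-homeodomain proteins carry a pair of LIM domains, which bind the cofactor Ldb1, and a homeodomain, which binds DNA. They set cell identity during development, mostly in neurons, the pituitary, limbs, gonads and kidney, and most belong to pairs of close relatives. *Lhx1* and *Lhx5* pattern the head and forebrain, *Lhx2* and *Lhx9* act in the eye, forebrain, limb and gonad, *Lhx3* and *Lhx4* act in the pituitary and in motor neurons, *Lhx6* and *Lhx8* in ventral forebrain neurons, and *Lmx1a* and *Lmx1b* in midbrain dopamine neurons. Red cells use Ldb1, which joins the LIM-only protein Lmo2, Tal1 and Gata1 in an erythroid complex. Genes of this kind are classical PRC2 targets in cells of other lineages, where H3K27me3 covers CpG-rich promoters of silent developmental regulators.

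Sequences of the DNA under the peaks differed in CpG content, and 8 stretches are shown to make that visible. All are the plus strand of NCBIM37 (mm9), in lower case with each CpG in capitals, read from the reference genome. The first group holds stretches that lay under H3K27me3 peaks of both WT fractions: 216 bases in an intron of *Lhx1* (chr11:84337084-84337299, 9 CpG), 300 bases inside *Lhx6* (chr2:35957670-35957969, 13 CpG) and 263 bases inside *Lhx8* (chr3:153992303-153992565, 20 CpG). The second group holds 150 bases each under peaks of a single fraction. From *Lhx2* come the pro-erythroblast summit (chr2:38192286-38192435, 12 CpG) and a stretch under the erythroblast peak just upstream of the gene (chr2:38194651-38194800, 21 CpG). The summit of that erythroblast peak lies in a UTR and is not shown. The others are the *Lhx9* pro-erythroblast summit (chr1:140741097-140741246, 0 CpG) and the *Lmx1b* erythroblast summit (chr2:33496269-33496418, 23 CpG). The last is the *Lhx1* summit of the lone Mtf2 peak near a TSS of the family (chr11:84333377-84333526, 6 CpG). Of the stretches read, that of *Lhx9* had the fewest CpG and that of *Lmx1b* the most, so the second group does not compare typical peaks. A longer shared piece at *Lhx8*, of 292 bases with 7 CpG, is not shown. Over all H3K27me3 peaks near these genes, median GC was 53.1% in WT pro-erythroblasts and 54.9% in WT erythroblasts.
Lhx1 both WT fractions: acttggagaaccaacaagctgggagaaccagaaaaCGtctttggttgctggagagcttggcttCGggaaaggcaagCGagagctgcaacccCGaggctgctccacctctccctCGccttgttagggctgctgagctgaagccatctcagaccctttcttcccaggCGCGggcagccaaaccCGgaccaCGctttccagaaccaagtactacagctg
Lhx6 both WT fractions: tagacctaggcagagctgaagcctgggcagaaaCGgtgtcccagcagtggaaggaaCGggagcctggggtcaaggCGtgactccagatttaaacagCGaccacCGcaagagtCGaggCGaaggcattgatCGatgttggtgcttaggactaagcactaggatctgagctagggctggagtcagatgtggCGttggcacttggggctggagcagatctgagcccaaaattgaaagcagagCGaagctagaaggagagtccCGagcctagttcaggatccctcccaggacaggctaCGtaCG
Lhx8 both WT fractions: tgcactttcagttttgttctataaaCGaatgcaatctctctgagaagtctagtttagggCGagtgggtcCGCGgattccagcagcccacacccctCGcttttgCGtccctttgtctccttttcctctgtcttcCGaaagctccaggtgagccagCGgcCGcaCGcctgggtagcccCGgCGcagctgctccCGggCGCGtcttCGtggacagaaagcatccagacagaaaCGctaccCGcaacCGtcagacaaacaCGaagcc
Lhx2 WT pro-erythroblast: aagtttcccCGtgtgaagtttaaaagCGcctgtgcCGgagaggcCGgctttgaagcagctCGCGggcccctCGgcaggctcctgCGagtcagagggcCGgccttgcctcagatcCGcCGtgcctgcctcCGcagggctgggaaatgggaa
Lhx2 WT erythroblast: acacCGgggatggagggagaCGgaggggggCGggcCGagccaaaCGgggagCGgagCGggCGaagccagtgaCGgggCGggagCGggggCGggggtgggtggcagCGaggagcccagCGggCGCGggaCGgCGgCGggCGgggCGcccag
Lhx9 WT pro-erythroblast: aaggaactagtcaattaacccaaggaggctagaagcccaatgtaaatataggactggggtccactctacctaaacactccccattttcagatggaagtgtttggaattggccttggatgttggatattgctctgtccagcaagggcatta
Lmx1b WT erythroblast: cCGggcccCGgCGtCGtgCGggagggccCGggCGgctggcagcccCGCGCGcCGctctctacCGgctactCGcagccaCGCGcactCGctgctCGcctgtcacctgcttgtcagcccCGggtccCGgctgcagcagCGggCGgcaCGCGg
Lhx1 pro-erythroblast Mtf2: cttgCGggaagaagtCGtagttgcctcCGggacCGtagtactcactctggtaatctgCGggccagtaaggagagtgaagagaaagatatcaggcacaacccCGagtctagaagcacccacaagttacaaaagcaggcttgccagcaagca

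In WT pro-erythroblasts, 7 of the 10 genes had an H3K27me3 peak within 5 kb of a TSS, namely *Lhx1*, *Lhx2*, *Lhx4*, *Lhx5*, *Lhx6*, *Lhx8* and *Lhx9*. Over all genes, the share was 3.3%. *Lhx3*, *Lmx1a* and *Lmx1b* had no peak in that window. In WT erythroblasts, all 10 genes had a peak there, where 11.6% of all genes did, and 7 genes were marked in both fractions, against 1.68% of all genes. Since the family was picked on these lists, nothing is read from the gap between its counts and those of all genes.

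**Figure D1:**
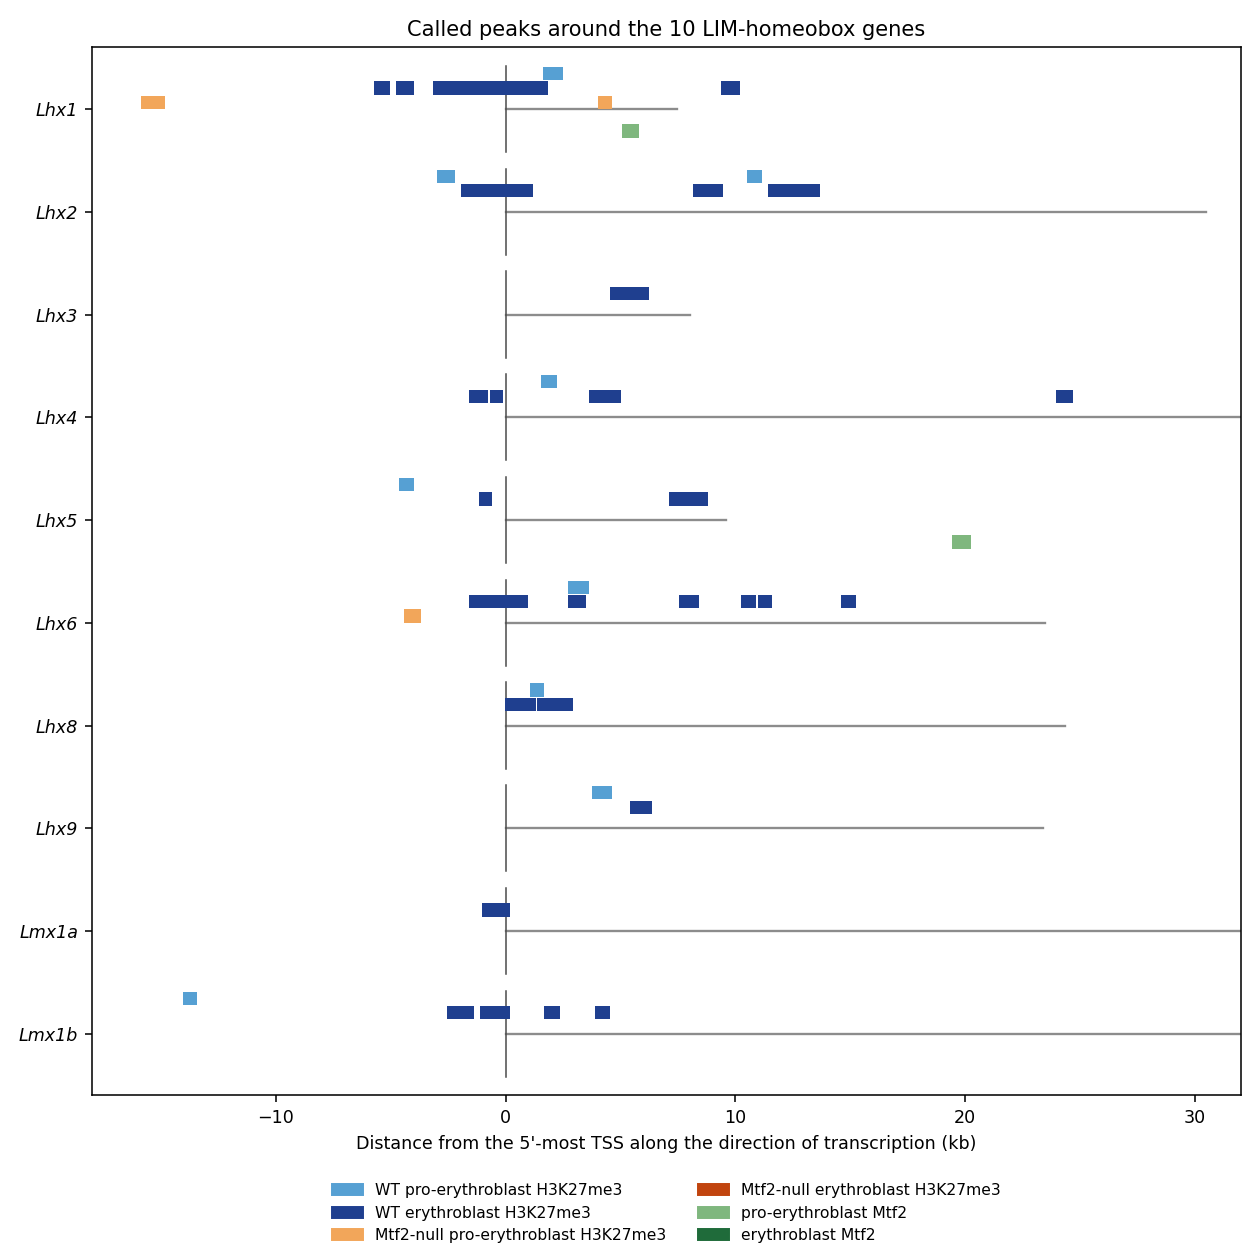
Called peaks around each gene, drawn to scale as distance in kb from the 5′-most TSS along the direction of transcription, with the gene as a grey line and the 6 lists as coloured lanes. Light blue pro-erythroblast peaks lie beside or partly over dark blue erythroblast peaks at 7 genes, and no peak of Mtf2-null erythroblasts falls in the range drawn.

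The pro-erythroblast marks were small. The 8 peaks near these genes were 628 to 889 bases long and held 17 to 24 tags, where the lowest tag number in the list was 16. Their fold enrichment over IgG ran from 7.31 to 10.96, and their score, −10 log10 of the authors' p, from 55.8 to 81.8 with a list minimum of 50.01. *Lhx1*, a regulator of head and kidney formation on chr11:84331479-84338923, had the strongest: 24 tags, 9.14-fold, score 81.8, an FDR of 6.04% and the 88.7th percentile of the list. Its summit lay in an intron, 0.63 kb upstream of the nearest TSS, and the peak was chr11:84336440-84337299. *Lhx2*, a forebrain and eye gene on chr2:38194801-38225253, was the member with a pair of them, 21 tags upstream (chr2:38191816-38192589) and 17 tags in an intron (chr2:38205301-38205972). These stood at the 64.8th and 38.7th percentiles by score, so the *Lhx2* peaks fell on either side of the list's median.

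The remaining pro-erythroblast peaks were alike in size. *Lhx4*, a pituitary gene on chr1:157548827-157589157, had 17 tags in an intron (chr1:157586931-157587605, 7.31-fold). *Lhx5*, the forebrain relative of *Lhx1* on chr5:120881895-120891466, had 17 tags upstream (chr5:120877273-120877926, 7.31-fold), with the summit 4.49 kb from the TSS. The interneuron gene *Lhx6*, on chr2:35937470-35960928, had 21 tags in an exon annotated as noncoding (chr2:35957304-35958192, 10.96-fold), the highest fold of the 8. Its relative *Lhx8*, on chr3:153969260-153993615, had 17 tags in an intron (chr3:153991938-153992565, 9.14-fold). *Lhx9*, a gonad and limb gene on chr1:140721763-140745153, had 20 tags in an intron (chr1:140740521-140741409, 9.14-fold). By score, 4 of the 8 lay above the median of the list, and their median of 18.5 tags compares with 18 for the 723 pro-erythroblast peaks near any TSS. Marks at these genes were thus close to the typical tag number of pro-erythroblast peaks near a TSS. They were below the whole list, whose medians were 22 tags and 9.14-fold, against 18.5 tags and 8.66-fold here. In bulk ChIP, a mark in fewer cells and less of it per cell cannot be told apart. The median density was 1.35 tags per kb and per 1000000 unique tags, against 1.42 for the whole list, and the exact Poisson 95% interval of the *Lhx1* peak, which covers counting error only, was 0.944 to 2.19 around 1.47.

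None of the 8 reached a score of 100 or an FDR of at most 5%. With either limit the pro-erythroblast count was 0 of 10 (0.121% and 0.0045% of all genes), while 6 of 10 remained in erythroblasts (5.55% and 5.50%). Score and FDR depend on the depth of ChIP and IgG. The IgG libraries held 16898992 unique tags in WT pro-erythroblasts and 12345800 in WT erythroblasts, and the part of depth in these counts was not tested. Within 1 kb of a TSS, 4 members had a pro-erythroblast peak (1.32% of all genes) and 10 an erythroblast peak (9.35%).

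**Figure D2:**
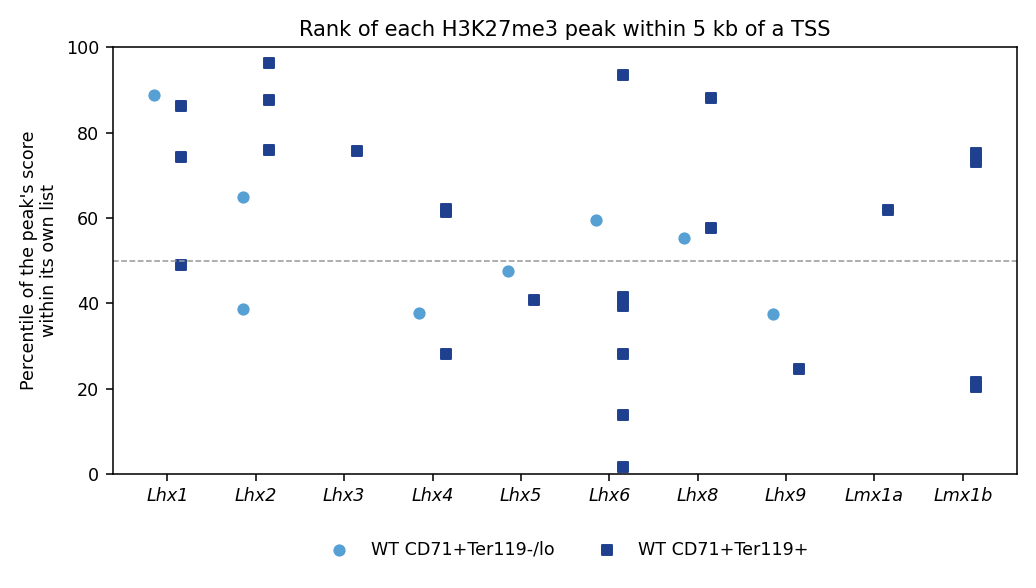
Percentile of each peak's score within its own list, for the H3K27me3 peaks within 5 kb of a TSS of each gene, with circles for WT pro-erythroblasts, squares for WT erythroblasts and the dashed line at the list median. The 8 circles lie between the 37.6th and 88.7th percentiles and the 25 squares between the 1.54th and 96.3rd.

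WT erythroblasts had more and longer called H3K27me3 peaks at the same genes, in a library 1.59 times as deep. This was not particular to the family. Near any TSS there were 2881 erythroblast peaks of median length 1237 bases, against 723 pro-erythroblast peaks of median length 708. At the 10 genes, 25 erythroblast peaks lay within 5 kb of a TSS, with 21 to 147 tags, 5.5- to 14.55-fold enrichment and scores of 50.3 to 310.7. By score, 10 of them passed 100 and the same number had an FDR of at most 5%. *Lhx2* had the highest-scoring, 147 tags over 3153 bases at its start (chr2:38192859-38196011, 14.55-fold, score 310.7, the 96.3rd percentile), with further peaks of 106 and 48 tags inside the gene. *Lhx6* had the most, 6 peaks of 21, 21, 22, 27, 29 and 118 tags, the last across its 5′ end (chr2:35959963-35962524). *Lhx1* had peaks of 117, 62 and 28 tags that ran from an intron into the upstream region, and these ranked at the 86.2nd, 74.2nd and 48.9th percentiles. Summed over the windows, *Lhx1*, *Lhx2* and *Lhx6* had 207, 301 and 238 tags, the most of the 10, but the windows around all TSS of a gene differed in width, 12.7, 23.0 and 21.0 kb here and 10.0 kb at *Lhx4* and *Lhx5*.

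*Lmx1b*, which acts in dorsal limb and kidney as well as dopamine neurons (chr2:33416485-33496031), had 4 erythroblast peaks of 62, 45, 22 and 21 tags. *Lhx8* had 2, of 65 and 49 tags, and *Lhx4* had 3, of 50, 33 and 21 tags. The pituitary gene *Lhx3* (chr2:26055732-26063769) had 1 peak of 56 tags over a coding exon (chr2:26057536-26059204). *Lmx1a*, the roof plate and dopamine neuron gene on chr1:169619370-169778872, had 1 peak of 56 tags at its start (chr1:169618345-169619561). *Lhx9* had 1 of 32 tags and *Lhx5* 1 of 21 tags within 5 kb, with another of 65 tags inside *Lhx5* 7.53 kb from its TSS (chr5:120889000-120890682). Members that lacked a pro-erythroblast mark were thus not the weakest in erythroblasts, where *Lhx5* and *Lhx9* had the fewest tags. With the 5′-most TSS alone, *Lhx9* lost its erythroblast mark and the count was 9 of 10.

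Covered length differed between the fractions, while tag density overlapped. Bases under H3K27me3 peaks within 5 kb of a TSS summed to 6041 over the 10 genes in pro-erythroblasts and 32510 in erythroblasts, with medians of 664.5 and 2843.5 per gene. The erythroblast value was higher at 9 of 10 genes, from 6746 against 1446 bases at *Lhx2* to 960 against 889 at *Lhx9*. *Lhx5* was the exception, with 558 bases in erythroblasts and 654 in pro-erythroblasts. Covered length was also greater in erythroblasts over all genes. Whole peaks near any TSS summed to 594938 bases in pro-erythroblasts and 3892764 in erythroblasts, so nothing is read from the family's sums. Per kb and per 1000000 unique tags, the erythroblast peaks of the 10 genes held 1.06 to 1.58 tags (median 1.19). Their pro-erythroblast peaks held 1.19 to 1.47, so the ranges overlapped. The erythroblast library was 1.59 times as deep, and the part of depth in the covered length was not tested. At pro-erythroblast depth, 18 of the 25 erythroblast peaks would hold at least 16 tags, the lowest number in the pro-erythroblast list, and the best of *Lhx3*, *Lmx1a* and *Lmx1b* would hold 35.3, 35.3 and 39.1. The *Lhx5* peak would hold 13.2.

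**Figure D3:**
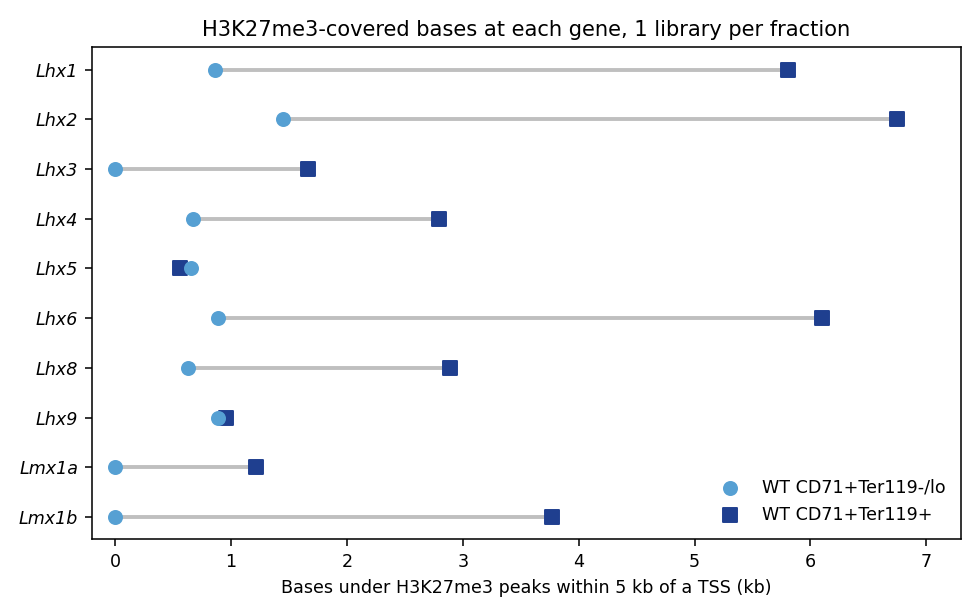
Kilobases under H3K27me3 peaks within 5 kb of any TSS of each gene, with circles for WT pro-erythroblasts and squares for WT erythroblasts, 1 library each and no error bars. The square lies to the right of the circle at 9 of the 10 genes, and *Lhx3*, *Lmx1a* and *Lmx1b* start from 0.

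Overlap between the marks of the fractions was counted peak by peak. A pro-erythroblast peak overlapped 4 of the 25 erythroblast peaks (16.0%), against 7.88% of the 2881 erythroblast peaks near any TSS. Conversely, 3 of the 8 pro-erythroblast peaks were overlapped (37.5%), against 31.4% of 723. The genes were chosen for having pro-erythroblast peaks, which raises the first share, so nothing is read from these differences. Shared bases numbered 744 at *Lhx6*, 216 at *Lhx1* and, with the longer of its erythroblast overlaps, 292 at *Lhx8*, where the pro-erythroblast peak bridged 2 erythroblast peaks. At *Lhx2* the gap to the nearest erythroblast peak was 269 bases upstream and 234 bases inside the gene. Gaps were 792 bases at *Lhx9*, 1401 at *Lhx4* and 2799 at *Lhx5*. No pro-erythroblast peak covered a TSS, while 11 of the 25 erythroblast peaks did. Summits lay within 1 kb of a TSS for 2 of 8 and 12 of 25 peaks, at median distances of 1.43 and 1.02 kb. The shares of peaks covering a TSS or with such summits were not counted over all genes. Peaks near any TSS were also longer in erythroblasts, at medians of 1237 and 708 bases, so nothing is read from these counts. With at least 50% of the erythroblast peak covered, only 1 overlap remained.

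By annotation, 5 of the 8 pro-erythroblast summits were intronic, 2 upstream of the gene and 1 in a noncoding exon. Of the 25 erythroblast summits, 10 were intronic, 8 upstream, 3 in UTRs, 3 in coding exons and 1 in a noncoding exon. In each case the nearest protein-coding TSS was that of the LIM-homeobox gene. Noncoding genes begin or lie close by at 3 loci, 1500016L03Rik beside *Lhx1*, Gm13584 within *Lhx2* and C130021I20Rik beside *Lmx1b*, and an erythroblast peak covers the start of 1500016L03Rik and that of C130021I20Rik. The peak closest inside the 5 kb limit was an erythroblast peak upstream of *Lhx1* with its edge at 3.99 kb (28 tags, 8.56-fold, score 67.5). The closest outside was the next peak upstream, at 5.03 kb (22 tags, 6.7-fold, score 52.9).

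The *Hox* and *Pax* genes were counted in the same way. Of 39 *Hox* genes, 30 had an erythroblast peak and 2 a pro-erythroblast peak within 5 kb, and 2 had both (6.67% of those marked in erythroblasts). Of 9 *Pax* genes, 5 were marked in erythroblasts and 2 of those in both fractions (40.0%). The LIM-homeobox genes had 7 of 10 (70.0%), and all protein-coding genes 373 of 2567. The contrast with these families was part of how the genes were picked, so no test is given.

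**Figure D4:**
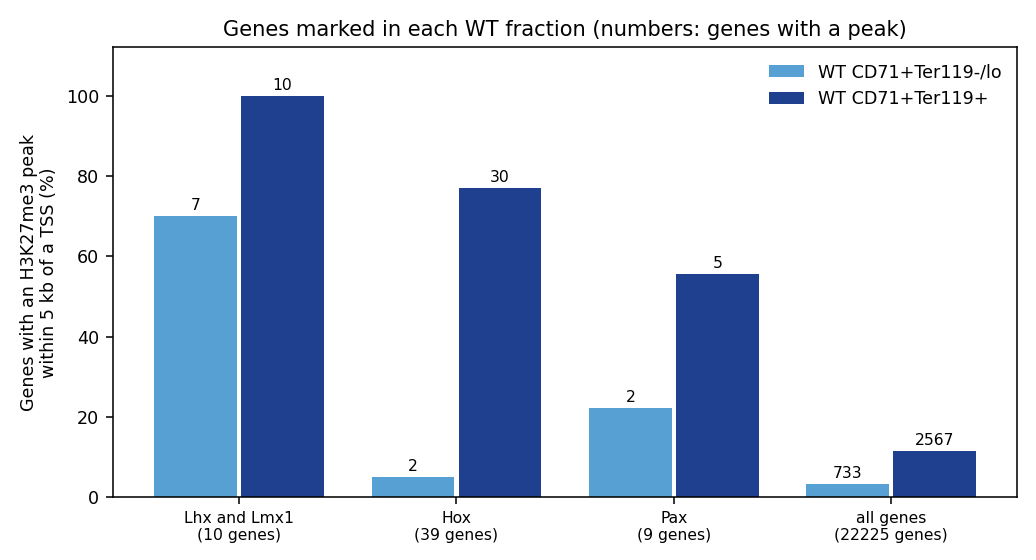
Percent of genes with an H3K27me3 peak within 5 kb of a TSS in each WT fraction, for the LIM-homeobox genes, the *Hox* and *Pax* genes and all protein-coding genes, with the number of genes above each bar. LIM-homeobox genes reach 70.0% in pro-erythroblasts, while *Hox* genes stand at 5.13% there and 76.9% in erythroblasts.

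In the Mtf2-null lists, the WT marks at these genes were not called. No H3K27me3 peak of Mtf2-null erythroblasts lay within 5 kb of a TSS of the 10 genes, where 1.64% of all genes had one, so 10 of 10 were marked in WT and not in Mtf2-null erythroblasts (11.4% of all genes). In Mtf2-null pro-erythroblasts 2 genes, *Lhx1* and *Lhx6*, had a peak (1.28% of all genes), so 5 of 10 were marked in WT and not in Mtf2-null pro-erythroblasts (3.12%). Among the genes marked in WT, an absent Mtf2-null call was the rule: it held for 10 of 10 members and 98.8% of all 2567 such genes in erythroblasts, and for 5 of 7 members and 94.7% of all 733 in pro-erythroblasts. Neither of these Mtf2-null peaks shared a base with a WT peak. At *Lhx1* it was an intronic peak of 24 tags, the lowest tag number in its list (chr11:84334275-84334923, 6.38-fold, score 51.4), and at *Lhx6* an upstream peak of 28 tags (chr2:35964589-35965328, 7.29-fold, score 59.9). Both had an FDR of 100%, as had every peak of that list. None of the 8 WT pro-erythroblast peaks and none of the 25 WT erythroblast peaks was overlapped by a Mtf2-null peak of its fraction. Near the TSS of any gene such overlap was nearly as rare, at 1.11% of 723 and 0.208% of 2881 WT peaks.

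The Mtf2-null libraries were 1.95 and 2.23 times as deep as WT in the 2 fractions. Scaled to that depth, the 25 WT erythroblast peaks would hold 46.9 to 328.5 tags. The lowest values in the Mtf2-null list were 35 tags and 2.91-fold. The 8 WT pro-erythroblast peaks would hold 33.2 to 46.9 tags, against a lowest of 24 and a lowest fold of 3.65. This scaling leaves out the IgG libraries, which also set the calls. They held 39667267 (Mtf2-null) and 16898992 (WT) unique tags in pro-erythroblasts and 20646036 and 12345800 in erythroblasts. Their part in the calls was not tested. With 1 library per genotype and a separate IgG library for each, the deletion cannot be told apart from differences between libraries, and an absent call gives no level of the mark.

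Mtf2 peaks near the same TSS were about as frequent as near those of all genes. In pro-erythroblasts, 1 of 10 genes had a Mtf2 peak within 5 kb (8.46% of all genes), an intronic peak at *Lhx1* of 23 tags (chr11:84333126-84333874, 6.62-fold, score 50.1), at the 0.354th percentile of its list. It was CpG island-like, at 58.6% GC, and shared no base with any H3K27me3 peak. In erythroblasts no member had a Mtf2 peak (1.51%). None of the 8 pro-erythroblast H3K27me3 peaks was overlapped by a Mtf2 peak of that fraction, against 20.5% of the 723 near any TSS, and none of the 25 erythroblast peaks, against 0.139% of 2881. The nearest pro-erythroblast Mtf2 peak lay at a median of 61.1 kb from a TSS of these genes and 44.4 kb from those of all genes. Unique tags made up 34.6% and 39.7% of the Mtf2 libraries, and their part in these counts was not tested.

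Farther out, some pro-erythroblast H3K27me3 peaks overlapped Mtf2 peaks of that fraction, where 78.3% of all genes had a Mtf2 peak within 100 kb. Pro-erythroblast H3K27me3 peaks outside the 5 kb window at *Lhx2*, *Lhx4* and *Lmx1b* overlapped none. The share of such overlaps over all genes was not counted. Inside *Lmx1a*, whose promoter had no pro-erythroblast H3K27me3 peak, 2 such peaks of 34 and 22 tags lay in the gene body (chr1:169753846-169755125 and chr1:169769651-169770598), with summits 134.8 and 150.4 kb from the nearest TSS. Both were overlapped by Mtf2 peaks of that fraction, which numbered 3 in the gene body and held 115, 164 and 293 tags. The largest (chr1:169764372-169770477, 14.82-fold, score 827.8) stood at the 99.0th percentile of its list and also covered an erythroblast Mtf2 peak of 24 tags. Downstream of *Lhx6*, 3 pro-erythroblast H3K27me3 peaks of 20, 36 and 16 tags lay under 1 Mtf2 peak of 243 tags (chr2:35869681-35875133), 79.5 kb from the nearest *Lhx6* TSS and closer to *Ndufa8*. Upstream of *Lhx8*, a pro-erythroblast Mtf2 peak of 74 tags (chr3:154017224-154018787) overlapped a Mtf2-null erythroblast H3K27me3 peak of 120 tags, which is of another fraction and genotype. The overlapping sites at *Lmx1a* were 42.7% and 42.8% GC at the H3K27me3 summits, none CpG island-like, and no erythroblast H3K27me3 peak lay on them.

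Gene bodies held a WT H3K27me3 peak at 7 of 10 genes in pro-erythroblasts (5.04% of all genes) and 10 of 10 in erythroblasts (11.5%), and a Mtf2 peak at 2 (14.8%) and 1 (4.4%). Within 100 kb of the gene, WT H3K27me3 peaks were found at 9 of 10 in pro-erythroblasts (36.6%) and 10 of 10 in erythroblasts (44.0%), with *Lmx1b* adding an 18-tag peak 13.5 kb upstream. Mtf2-null H3K27me3 peaks were found within 100 kb at 5 genes in pro-erythroblasts (17.0%) and 4 in erythroblasts (31.3%). Mtf2 peaks were there at 7 genes in pro-erythroblasts (78.3%) and 2 in erythroblasts (31.3%). Many of these are nearer to another gene, as at *Lhx3*, where 3 erythroblast peaks lie by *Nacc2*.

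Of the 12 CpG island-like H3K27me3 peaks near these genes, all but that of *Lhx8* in pro-erythroblasts were erythroblast peaks. Of the 25 erythroblast peaks near these genes, 11 were CpG island-like (44.0%), against 65.8% of the 2881 near any TSS, with a median GC of 54.9% and CpG ratio of 0.576. Of the 8 pro-erythroblast peaks, 1 was (12.5%), that of *Lhx8* with a CpG ratio of 0.942, against 18.0% of 723. Median values there were 53.1% GC and 0.545, close to those in erythroblasts. The *Lmx1b* erythroblast peak had the highest GC, 73.5% with a ratio of 0.904, while the lowest ratio was that of the *Lhx9* pro-erythroblast peak, 0.101 at 44.5% GC, whose printed summit has no CpG. At *Lhx2* both kinds occur a few kb apart, 54.2% GC at the upstream pro-erythroblast peak and 66.6% at the erythroblast peak over the gene's start. Outside these, 0 of 7 Mtf2-null pro-erythroblast, 0 of 4 Mtf2-null erythroblast, 1 of 14 pro-erythroblast Mtf2 and 0 of 2 erythroblast Mtf2 peaks within 100 kb were CpG island-like.

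**Figure D5:**
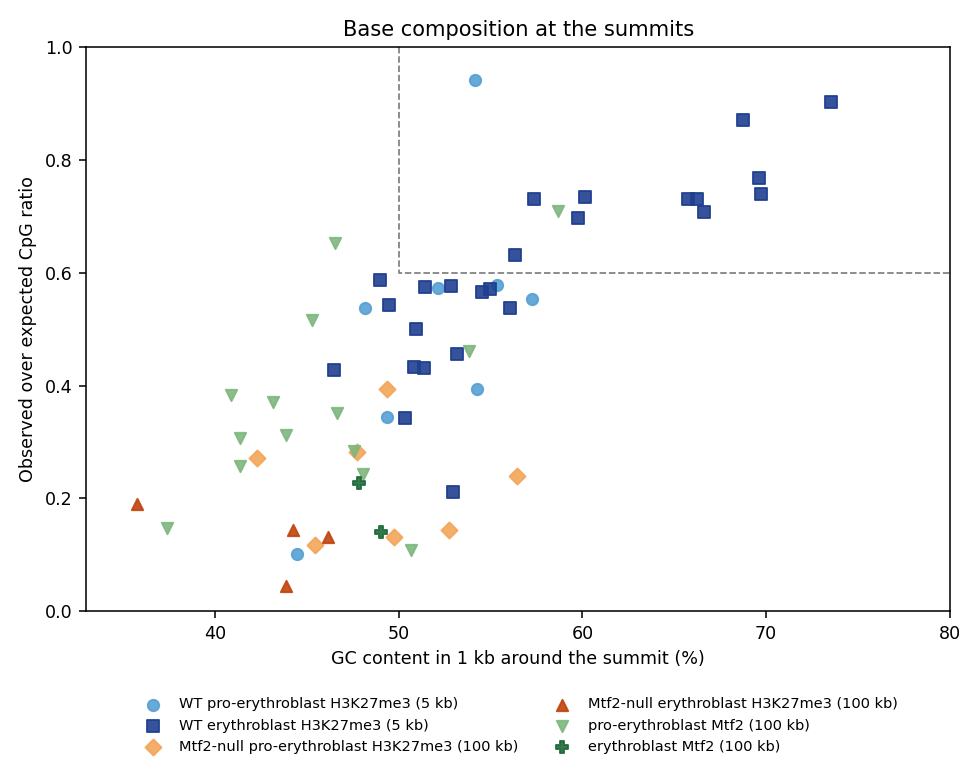
GC percent and observed over expected CpG ratio in the 1 kb around each summit, for WT H3K27me3 peaks within 5 kb of a TSS and peaks of the other 4 lists within 100 kb, with dashed lines at the CpG island-like limits of 50% and 0.6. Within the limits lie 11 of 25 erythroblast squares, 1 of 8 pro-erythroblast circles and 1 Mtf2 triangle, and none of the Mtf2-null points.

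The promoters themselves were rich in CpG. At the 5′-most TSS, 7 of 10 genes were CpG island-like, all but *Lhx3*, *Lhx8* and *Lhx9*, against 44.3% of all genes, with a median GC of 62.8% against 54.8% and a median CpG ratio of 0.703 against 0.5501. Counting CG in the 300 bases around the TSS, where it reads the same on both strands, the family had a median of 20 against 15, and 95.9% of all genes had at least 1. *Lhx2* had 44 and *Lhx8* had 5, the ends of the range. Among genes with a CpG island-like TSS, 5 of 7 members were marked in pro-erythroblasts, where 4.17% of such genes were, and 7 of 7 in erythroblasts, where 18.2% were. *Lhx8* and *Lhx9*, marked in both fractions, were not among them.

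Of 18 listed relatives and partners, 2 had a called H3K27me3 peak within 5 kb in each WT fraction. Over all genes, the shares were 3.3% in pro-erythroblasts and 11.6% in erythroblasts, so nothing is read from these counts. Of the LIM-homeodomain relatives *Isl1* and *Isl2*, motor neuron genes, *Isl2* was marked in both WT fractions, by a pro-erythroblast peak of 39 tags (score 114.3) that lay within an erythroblast peak of 178 tags. *Isl1* had no peak within 5 kb in any of the 6 lists. The cofactor genes *Ldb1*, *Ldb2*, *Ssbp2*, *Ssbp3*, *Ssbp4* and *Rlim* (0 of 6) and the LIM-only genes *Lmo1* to *Lmo4* (0 of 4) had none within 5 kb in any list. Among the erythroid partners *Tal1*, *Lyl1*, *Tcf3*, *Gata1*, *Gata2* and *Klf1*, *Gata2*, a stem and progenitor factor that is shut off as red cells mature, was marked, by 17 tags in pro-erythroblasts and by 4 peaks of 22 to 114 tags in erythroblasts. No partner gene had a Mtf2-null or a Mtf2 peak within 5 kb, where 1.28% to 8.46% of all genes did, depending on the list.

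Within 5 kb of a TSS, *Lhx2*, *Lhx4*, *Lhx5*, *Lhx8* and *Lhx9* had a WT H3K27me3 peak in both fractions and none in the Mtf2-null or Mtf2 lists. This pattern, which leaves aside peaks farther out, was shared by 316 genes in all. Ranked by bases under the pro-erythroblast peaks, the best member stood 30th. The 5 non-members with the most bases were *Fgf8*, a growth factor of limb and brain patterning, *Fam163a*, *S1pr5*, a sphingosine 1-phosphate receptor, *Rnf207* and *Vax2*, a homeobox gene of the ventral eye. *Fgf8* had 2813 bases in pro-erythroblasts and 4665 in erythroblasts, and *Vax2* 2022 and 1333.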

How the data were processed

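H3K27me3 and Mtf2 ChIP-seq of sorted e14.5 FL cells was analysed from 6 deposited peak lists, 1 per ChIP library (the methods state replicates of 2, and whether they were pooled is not stated), each called by the authors against IgG of the same fraction and genotype. WT H3K27me3 and Mtf2 lists of a fraction share their IgG library. Reads had been aligned to mm9 (Bowtie2 2.2.3), and peaks called with MACS 1.3.7 at a p of 1e-05. In the deposited tables, the tag count of a peak is a raw number of reads. Fold enrichment, as deposited, is a ratio of ChIP over the expected IgG level. MACS wrote the deposited score as −10 log10 of p, and the authors' FDR column is a percent obtained by swapping ChIP and IgG. These values depend on depth, so a limit on them differs in meaning between lists. The ChIP libraries held between 15669899 and 67169672 unique tags.

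Groups came from the labels. TSS came from GENCODE M1 on NCBIM37, the assembly of mm9, with protein-coding records merged by symbol to 22225 genes without mitochondrial ones. A gene had a peak when at least 1 base lay within 5 kb of any TSS. Percentiles are ranks within a list. Poisson intervals (95%) cover counting error only, since PCR copies are not independent. No test was run: each condition has 1 library. The members and gene lists were chosen with earlier results of these data known. Named genes were the 10 members, lists of partners and markers, *Hox* and *Pax* genes as counts, the 5 non-members of the same pattern with most bases, and the peaks at the 5 kb limit. Isolated remarks on single peaks were added after their values were seen. Alternatives set a score limit of 100, an FDR limit of 5%, equal numbers of peaks, windows of 1 and 10 kb or the whole gene, summits, the 5′-most TSS, 50% overlap, and other CpG limits. Overlap steps were tested on simulated data. Versions were numpy 2.4.6, scipy 1.17.1, pandas 2.3.3, matplotlib 3.10.9 and Python 3.11.15. Some homeobox genes are not reported here, and expression data were not analysed here.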

Additional observations from a re-analysis of the deposited data

How the results depend on the processing

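No paired analysis was possible because each condition has 1 library, and for the same reason no library could be left out. Of 77 recomputed counts, 47 stayed within 1.5 times the reported value and 30 moved. The 47 include counts of 0 for Mtf2-null erythroblast H3K27me3 and erythroblast Mtf2, which limits or windows that only remove peaks cannot change. Members marked in WT pro-erythroblasts (7) fell to 0 at a score of at least 100, 0 at an FDR of at most 5%, 1 with equal numbers of peaks and 4 with a 1 kb window, and members marked in both WT fractions gave the same 0, 0, 1 and 4. Members marked in WT erythroblasts (10) were 6 at the score limit, 6 at the FDR limit and 6 with equal numbers of peaks, as were those marked in WT and not in Mtf2-null erythroblasts (6, 6 and 6). Members marked in WT and not in Mtf2-null pro-erythroblasts (5) were 0 under each of these. Members with a Mtf2-null pro-erythroblast peak (2) were 0 at the score limit, the FDR limit and within 1 kb. The pro-erythroblast Mtf2 count (1) was 0 at the score limit, with equal numbers of peaks, within 1 kb and for the 5′-most TSS, and 2 over the whole gene, where the erythroblast Mtf2 count rose from 0 to 1. Overlapped WT erythroblast peaks (4) were 1 with at least 50% covered and 0 at the score or FDR limit. CpG island-like H3K27me3 peaks of both WT fractions (12) were 4 at a CpG ratio of at least 0.75. Score and FDR limits and equal numbers remove peaks by construction.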
